A study of Arabidopsis halleri and Arabidopsis lyrata subsp. petraea with 24 samples.

Results

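AOP1 and AOP3 encode 2-oxoglutarate-dependent dioxygenases of a small gene cluster in Arabidopsis thaliana, whose members act on the side chains of glucosinolates. They were measured here in A. halleri and A. petraea by 1 probe set each, 255438_at for AOP1 and 255471_at for AOP3, on 24 Affymetrix ATH1 arrays. The 2 genes were selected on measured values of these same arrays, so their levels, species differences and organ differences are given as descriptions without a test. They are 2 of 9560 named genes that passed a filter on low mean signal, and both passed it.

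Glucosinolates are sulfur-rich defence compounds of the mustard family that myrosinases hydrolyse into toxic products when tissue is damaged. Aliphatic glucosinolates are built from chain-elongated methionine, given the shared glucosinolate core, and then altered at the side chain. In A. thaliana, AOP3 converts methylsulfinylalkyl into hydroxyalkyl glucosinolates, its neighbour AOP2 produces alkenyl glucosinolates, and the role of AOP1 is less clear. A. thaliana accessions differ in which of AOP2 and AOP3 they express. AOP2 had no named probe set in the annotation used, so no value is given for it.

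The study set 25 µM zinc against a control of full mineral medium in the whole root system and the rosette leaves of Arabidopsis halleri and of Arabidopsis lyrata subsp. petraea, written A. petraea below. A. halleri is a zinc hyperaccumulator and A. petraea a related species that does not hyperaccumulate. The 8 groups held 3 arrays each: control and high zinc leaves and control and high zinc roots of each species. Per the labels, plants of all groups grew under 10 h of light, and 23 arrays came from plants at the stage of 10 to 16 rosette leaves. The exception, A. halleri control root array 1, was given the stage 1.1. The sources used here state neither the zinc in the control medium nor a plant or culture for each array. Errors and p-values below therefore reflect spread between arrays, which may be technical. A whole organ holds many cell types, and fewer cells of a type cannot be told apart from less RNA per cell.

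Each array title carries a serial number, and the arrays were grouped in 2 ways. The printed grouping takes each array's species, organ and zinc as its labels give them. The inferred grouping sorts the titles as text, so that 10 comes before 2, and gives the array at each place in that order the group printed for the serial number of that place. It is an inference and not a label. It moved 23 of 24 arrays to another place, and every result given under it holds only if it is right.

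The inferred grouping was set against marker genes that are neither AOP1 nor AOP3. The leaf markers were RCA, PSAE-1, PRK and SBPASE, which serve photosynthesis, and the root markers were PYK10, EXPA7 and EXPA18. The sign of the leaf mean minus the root mean matched the inferred organ on 23 of 24 arrays and the printed organ on 9 of 24. The array with the closest profile came from the same species and organ for 22 of 24 arrays as inferred and for 5 of 24 as printed. For the species, ZIP9, a zinc transporter gene known for high root expression in A. halleri, had signals of 94.1 to 1061.0 in inferred A. halleri roots and 6.7 to 99.9 in inferred A. petraea roots. ZIP6, another zinc transporter gene of this kind, had 96.7 to 695.2 in inferred A. halleri and 78.5 to 284.2 in inferred A. petraea. The ranges of both genes overlapped between the species. The other 4 of 6 listed genes known for high expression in A. halleri had no named probe set.

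Titles 5 and 24 stood apart. The array titled 24, inferred as A. petraea high zinc roots replicate 2, carried leaf markers 3.43 above root markers on the log2 scale, against its inferred organ. The array titled 5, inferred as A. petraea control leaves replicate 2, correlated best with the array titled 24 (r = 0.923 over probe sets). Both held intermediate PYK10 signals, 544.0 on title 5 and 546.3 on title 24, beside RCA signals of 5563.3 and 4739.0. AOP3 results that rest on title 24 are given with and without it.

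AOP3 was bright on a few arrays and dim on most. Its signal, a linear MAS5 intensity with no fixed unit, was over 1000 on 7 of 24 arrays and under 100 on 15. All 7 bright arrays had leaf markers above root markers. In the inferred grouping they were the 6 A. petraea leaf arrays and the array titled 24.

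In inferred A. petraea leaves, AOP3 signals were 3277.3, 1747.5 and 3790.6 on the control arrays. On the high zinc arrays they were 4650.0, 2937.2 and 3395.5. The control array at 1747.5 is title 5, which gave the lowest of the 6 values, and the control and high zinc values overlapped. AOP3 lay above the array's own median signal on each of the 6 arrays.

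In inferred A. halleri leaves, AOP3 signals were 39.6, 28.4 and 25.9 on the control arrays. With high zinc they were 47.8, 12.4 and 46.6. These values lay far below the A. petraea leaves with no overlap. In inferred A. halleri roots the signals were 19.6, 10.4 and 40.7 with control medium, and 2.2, 30.8 and 8.0 with high zinc. AOP3 was below the array's own median signal on all 12 inferred A. halleri arrays and below its lower quartile on 4 of them. The files used here hold no detection calls, so whether AOP3 was detected at all on these arrays cannot be given.

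Inferred A. petraea roots were uneven for AOP3. The control arrays gave 359.4, 30.0 and 58.2, and the high zinc arrays 592.1, 2172.6 and 19.2. The value of 2172.6 is the array titled 24. Without it, the arrays at 30.0 and 19.2 lay within the A. halleri range, the one at 58.2 just above it, and those at 359.4 and 592.1 well above it.

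On the other 5 A. petraea root arrays, the high AOP3 signals came with the lower leaf minus root marker values. The 2 arrays with AOP3 at 359.4 and 592.1 had the lowest leaf minus root marker values of the 6, -3.58 and -3.89, with RCA at 34.9 and 42.6. They are replicate 1 of the inferred control and high zinc roots, and each had the other as its closest profile (r = 0.912). The arrays with AOP3 at 30.0, 58.2 and 19.2 had marker values of -2.09, -0.39 and -1.37, with RCA at 50.9, 164.9 and 95.3. The log2 ratio of the GAPDH 3′ to 5′ control probe sets, a sign of RNA integrity or labelling, was 0.94 and 0.93 on the former pair and 1.29, -0.80 and -0.37 on the latter arrays. The same ratio for actin was 0.48 and 0.09 on the former pair and -0.33, -0.83 and -0.82 on the latter arrays, without overlap. The part of the replicate number, the markers and these ratios in the AOP3 signal was not tested.

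**Figure D1:**
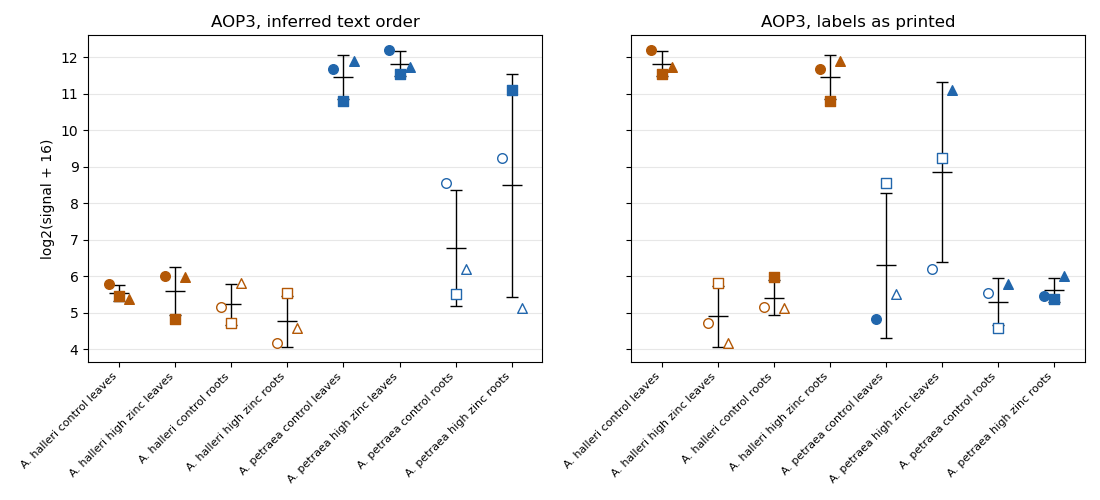
AOP3 on the 24 arrays as log2(signal + 16) under the inferred grouping (left) and the printed one (right). Each point is an array (orange, A. halleri; blue, A. petraea; filled, leaf markers above root markers; open, root markers above; circle, square and triangle for replicate 1, 2 and 3), and black bars give the mean ± SD of 3 arrays. The 6 inferred A. petraea leaf arrays sit together at the top left, from 1747.5 to 4650.0 in signal, with 1 filled A. petraea root point, the array titled 24, beside them.

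In order of median AOP3 signal, inferred A. petraea leaves came first at 3336.4, then A. petraea roots at 208.8, A. halleri leaves at 34.0 and A. halleri roots at 15.0. On the scale of log2(signal + 16) the means were 11.64 ± 0.47, 7.63 ± 2.37, 5.57 ± 0.44 and 5.00 ± 0.62 (SD, n = 6 each). Without the array titled 24, A. petraea roots came to 6.93 ± 1.85 (SD, n = 5), with a median signal of 58.2. Only the step from A. petraea leaves to the next level exceeded the spread between arrays on both sides once title 24 was left out. A. petraea roots overlapped both A. halleri organs, and these overlapped each other.

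All differences below are on the scale of log2(signal + 16), which understates changes at low signal, and come with a standard error (SE) from the fit over all probe sets. For each gene the SE pools the spread within all 8 groups. For AOP3 differences that involve A. petraea roots, it is smaller than the spread of those roots would give. The fit also treats same-numbered control and high zinc arrays as independent, though they deviated together. The SE of species and organ differences may thus be too small. SEs and intervals of AOP1 and AOP3 for species and organ are descriptions and not tests. In leaves, AOP3 was 6.06 ± 0.67 higher in A. petraea than in A. halleri, and the ratio of the median signals was 98.1. The size rests on dim A. halleri signals: the difference was 6.65 with a pseudocount of 1 and 5.06 with 64. The inferred species contrast in leaves called 6.06% of all probe sets and no call is read for AOP3, which was selected on such values. In roots the AOP3 difference was 2.63 ± 0.67, or 1.97 ± 0.58 without the array titled 24, in a contrast that called 4.69% of probe sets. Leaving out single arrays gave 1.97 to 3.46, the highest without A. petraea high zinc roots replicate 3, the array at 19.2.

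Between organs of A. petraea, AOP3 was 4.01 ± 0.67 higher in leaves than in roots, and 4.66 ± 0.58 higher without the array titled 24. Without A. petraea high zinc roots replicate 3 it was 3.17, the lowest value with 1 array left out. This organ contrast called 21.5% of probe sets. In A. halleri the AOP3 difference between leaves and roots was 0.57 ± 0.67, with a 95% interval from -0.82 to 1.97, in a contrast that called 38.0% of probe sets. The AOP3 species difference was larger in leaves than in roots by 3.44 ± 0.95, or by 4.09 ± 0.80 without title 24 and 2.60 without A. petraea high zinc roots replicate 3.

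The probes were designed on A. thaliana. A probe set can lose signal in a species whose transcript differs in sequence, and AOP2 and AOP3 are similar enough that their transcripts may share probes. Neither part in the species differences was tested, and a sequence effect on the probes cannot be told apart from a lower transcript level between species. The comparison of organs within A. petraea uses the same probes on the same species, but probes shared with AOP2 could enter it as well. That part was not tested either.

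AOP1 moved over a much narrower range, and its high arrays were others. In inferred A. halleri roots its signals were 110.0, 119.5 and 109.0 with control medium and 100.1, 102.1 and 94.7 with high zinc. These 6 arrays lay close together and above the other 18. In inferred A. halleri leaves, AOP1 was at 49.7, 33.5 and 54.0 with control medium and at 72.2, 26.4 and 52.2 with high zinc.

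In inferred A. petraea leaves AOP1 was at 20.6, 43.5 and 27.1 on the control arrays and at 25.8, 15.8 and 20.6 on the high zinc arrays. In inferred A. petraea roots it was at 47.0, 26.1 and 2.6 on the control arrays and at 19.4, 20.8 and 36.3 on the high zinc arrays. The highest A. petraea leaf value, 43.5, is the array titled 5. AOP1 lay below the array's own median signal on all 12 inferred A. petraea arrays, on 3 of 6 A. halleri leaf arrays and on 0 of 6 A. halleri root arrays. Without detection calls, whether AOP1 was detected on the A. petraea arrays cannot be given. The A. petraea leaves and roots overlapped throughout, and the leaves of the 2 species overlapped in part.

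**Figure D2:**
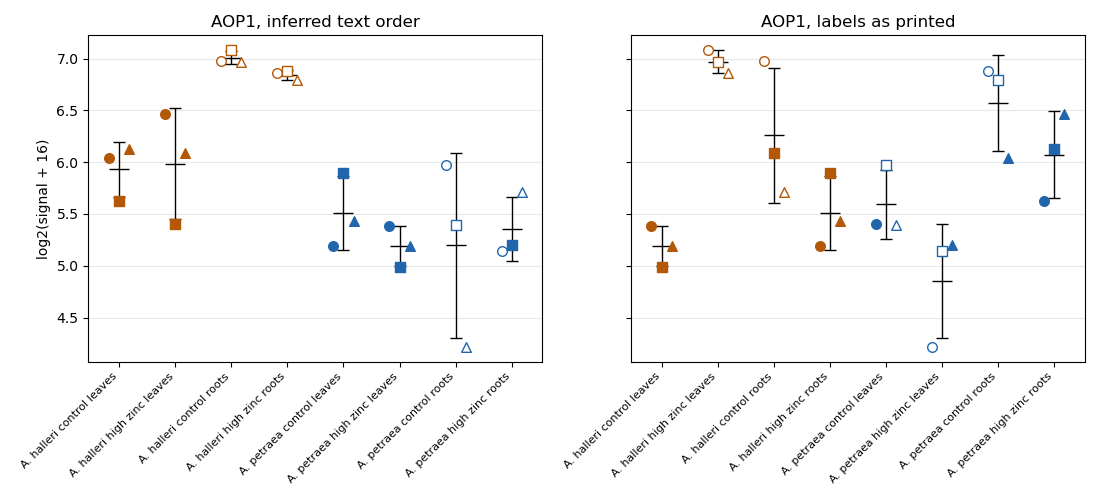
AOP1 on the 24 arrays as log2(signal + 16) under the inferred grouping (left) and the printed one (right), with symbols, colours and bars (mean ± SD of 3 arrays) as for AOP3. The 6 inferred A. halleri root arrays sit highest, from 94.7 to 119.5 in signal, and the lowest point is an inferred A. petraea control root array at 2.6.

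In order of median signal, AOP1 stood at 105.6 in inferred A. halleri roots, 51.0 in A. halleri leaves, 23.5 in A. petraea roots and 23.2 in A. petraea leaves. The means on the log2(signal + 16) scale were 6.93 ± 0.10, 5.96 ± 0.38, 5.27 ± 0.61 and 5.35 ± 0.31 (SD, n = 6 each). Only A. halleri roots were separate from the next level by more than the spread between arrays.

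AOP1 was 1.65 ± 0.25 lower in A. petraea than in A. halleri roots, a log2 difference of -1.65 that stood at -1.61 without the array titled 24. In leaves the species difference was -0.61 ± 0.25, again with the lower mean in A. petraea. Within A. halleri, AOP1 was lower in leaves than in roots by 0.97, as a log2 difference of -0.97 ± 0.25. The median of that contrast over all probe sets was -0.28, and with quantile normalization the AOP1 difference was -0.72 ± 0.25. Within A. petraea the organ difference was 0.07 ± 0.25, with a 95% interval from -0.44 to 0.59. The species differences in leaves and in roots were apart by 1.04 ± 0.35. As for AOP3, the part of the probes' A. thaliana design in the species differences was not tested.

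AOP3 and AOP1 ran in opposite directions between the species and differed in the organ that was high. Over the 24 arrays their log2 values had a Pearson r of -0.57 and a Spearman rho of -0.64, a description only, since the arrays form clusters by species and organ. Against the marker contrast, AOP3 separated the species among arrays with leaf markers, whereas AOP1 separated them among arrays with root markers.

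**Figure D3:**
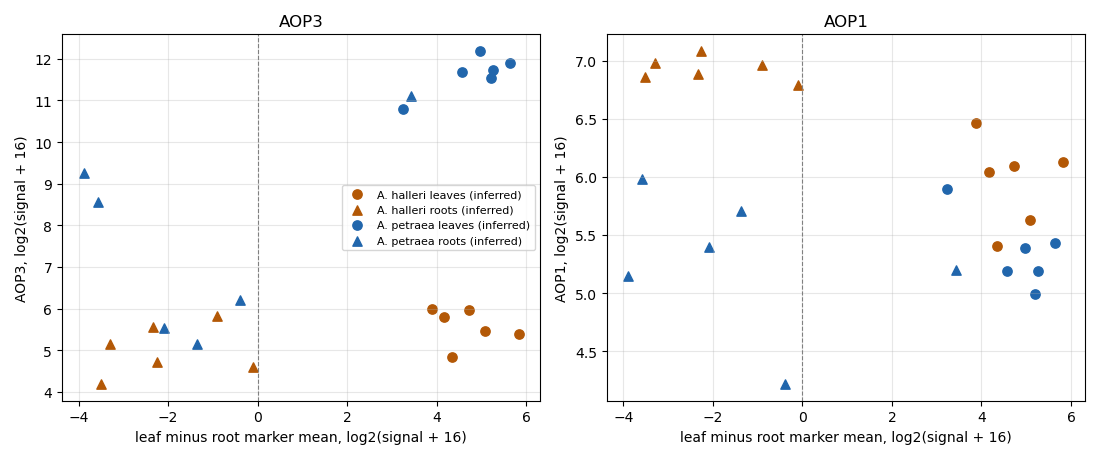
AOP3 (left) and AOP1 (right), each as log2(signal + 16), against the leaf marker mean minus the root marker mean on the same log2 scale for the 24 arrays (orange, A. halleri; blue, A. petraea; circles, inferred leaves; triangles, inferred roots). The single triangle right of 0 is the array titled 24 at 3.43, which lies with the A. petraea leaves for AOP3. The other A. petraea root arrays spread over AOP3 at marker values from -3.89 to -0.39.

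Zinc responses were tested under the inferred grouping, as high zinc minus control with limma's moderated test, adjusted over all probe sets by the Benjamini-Hochberg method. Neither gene passed the threshold in any organ of either species. For AOP3 in A. petraea leaves the difference was 0.36 ± 0.95 (95% interval -1.61 to 2.33, adjusted p = 0.999). In A. petraea roots it was 1.73 ± 0.95 (95% interval -0.24 to 3.70, adjusted p = 1.000), and without the array titled 24 it was 0.43 ± 0.86. Without A. petraea high zinc roots replicate 3 it was 3.41, also with no call. In A. halleri the AOP3 differences were 0.04 ± 0.95 in leaves and -0.46 ± 0.95 in roots. The pooled SE carries the uneven A. petraea roots into the AOP3 intervals of every group. For A. petraea roots themselves it is smaller than their own spread would give. Without the array titled 24, the AOP3 SE was 0.77 in A. petraea leaves and in both A. halleri organs. The AOP3 intervals of the main fit each span several log2 units. This fit therefore does not exclude a several-fold zinc response in any organ of either species.

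AOP1 had narrower intervals. Its zinc differences were -0.32 ± 0.35 in A. petraea leaves (95% interval -1.04 to 0.41) and 0.16 ± 0.35 in A. petraea roots (95% interval -0.57 to 0.88). In A. halleri they were 0.05 ± 0.35 in leaves and -0.16 ± 0.35 in roots. In A. halleri roots every control signal of AOP1 lay above every high zinc signal, by a small margin beside the pooled SE. In A. halleri leaves and in both A. petraea organs control and high zinc signals overlapped. The limma adjusted p-values of these tests were at least 0.999. The zinc responses of the species differed by 0.32 ± 1.34 for AOP3 in leaves, 2.19 ± 1.34 for AOP3 in roots, -0.37 ± 0.49 for AOP1 in leaves and 0.32 ± 0.49 for AOP1 in roots, with no call. Without the array titled 24, the AOP3 value in roots was 0.89 ± 1.16, and without A. petraea high zinc roots replicate 3 it was 3.87.

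Few probe sets were called in any zinc contrast of the inferred grouping. The share called by limma was 0.00585% in A. petraea leaves and 0% in A. petraea roots, in A. halleri leaves and in A. halleri roots. It was also 0% for the difference between species in leaves and 0% for that in roots. At an unadjusted p under 0.05, the counts over 17107 probe sets ran from 100 to 466 among these 6 contrasts. Each is below a share of 0.05, the share expected with no difference. The fit held no replicate block, though same-numbered arrays deviated together in 11 of 12 inferred pairs. With a replicate block within each species and organ, the unadjusted counts ran from 355 to 1542. Then 5 probe sets were called in A. petraea leaves, and neither AOP gene was called in any zinc contrast.

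Under the printed labels the same signals gave another pattern. The 7 arrays with AOP3 over 1000 were the 3 labelled A. halleri control leaves, the 3 labelled A. halleri high zinc roots and 1 of those labelled A. petraea high zinc leaves. The AOP3 zinc difference was -6.91 ± 0.91 in printed A. halleri leaves and 6.03 ± 0.91 in printed A. halleri roots. The arrays labelled A. halleri high zinc leaves carried root markers above leaf markers. In printed A. petraea it was 2.55 ± 0.91 in leaves and 0.31 ± 0.91 in roots. The printed A. halleri leaf contrast called 17.2% of probe sets and the A. halleri root contrast 0.0585%. The A. petraea leaf contrast and the A. petraea root contrast called 0% each, with 669 and 1194 probe sets at an unadjusted p under 0.05.

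Printed A. halleri high zinc roots held AOP3 signals of 3277.3, 1747.5 and 3790.6, all on arrays with leaf markers above root markers. The printed species differences of AOP3 were -0.79 ± 0.65 in leaves and -2.97 ± 0.65 in roots, and both have the sign opposite to the inferred grouping. The printed organ differences of AOP3 were 2.11 ± 0.65 in A. petraea and -0.07 ± 0.65 in A. halleri. No species or organ contrast of the printed grouping called a probe set (0%), while 931, 942, 2279 and 247 passed an unadjusted p under 0.05 in limma for species in leaves, species in roots, organ in A. petraea and organ in A. halleri.

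For AOP1 the printed zinc differences were 1.78 ± 0.35 in A. halleri leaves, -0.75 ± 0.35 in A. halleri roots, -0.74 ± 0.35 in A. petraea leaves and -0.50 ± 0.35 in A. petraea roots. The printed species differences of AOP1 were -0.86 ± 0.25 in leaves and 0.44 ± 0.25 in roots. Its printed organ differences were -1.10 ± 0.25 in A. petraea and 0.20 ± 0.25 in A. halleri.

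**Figure D4:**
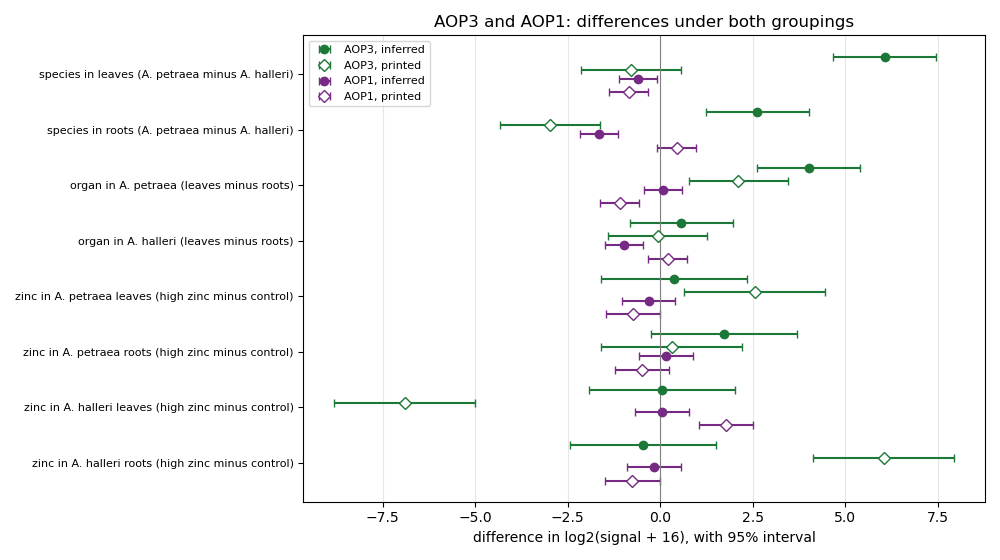
Differences of AOP3 (green) and AOP1 (purple) in log2(signal + 16) for the species, organ and zinc comparisons, with 95% intervals from the fit (filled circles, inferred grouping; open diamonds, printed labels). Only the inferred zinc differences were tested. All other intervals are descriptions, since the genes were selected on these arrays. Zinc responses of AOP3 in A. halleri are -6.91 in leaves and 6.03 in roots as printed, against 0.04 and -0.46 as inferred.

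The glucosinolate pathway around these genes was followed with lists of 59 genes for side-chain elongation, core synthesis, side-chain modification, regulators, transport and breakdown. Only 7 of the 59 had a named probe set, and 6 passed the filter on low signal. These were BCAT4, an aminotransferase that starts methionine chain elongation, the glutathione transferase GSTU20, the glucosyltransferases UGT74B1 and UGT74C1 of core synthesis, and the glucosinolate transporters GTR1 and GTR2. The other, GSL-OH, which hydroxylates alkenyl glucosinolates in A. thaliana, had signals from 1.5 to 11.5 and was not tested.

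Of the 6 genes tested, 5 were called higher in leaves than in roots in each species under the inferred grouping, and 0 were called lower. GTR2 was the exception in both, with leaves minus roots at 0.45 ± 0.39 in A. petraea and -0.44 ± 0.39 in A. halleri. Over all probe sets, 9.36% were called higher in leaves in A. petraea and 12.4% in A. halleri. The medians of these organ differences over all probe sets were -0.19 in A. petraea and -0.28 in A. halleri. With 6 genes of 59, the counts do not describe the pathway as a whole. The fit treats same-numbered control and high zinc arrays as independent, though 11 of 12 inferred pairs deviated together. Errors of organ and species differences may thus be too small, and calls near the threshold are the least secure.

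In A. petraea, BCAT4 rose from 48.8 to 297.3 in roots to 301.0 to 609.3 in leaves, a difference of 1.53 ± 0.42 (limma adjusted p = 0.0118). GSTU20 differed by 2.26 ± 0.42 (limma adjusted p = 0.000603), with 376.5 to 1199.6 in leaves and 53.2 to 378.7 in roots. UGT74C1 differed by 1.62 ± 0.44 (limma adjusted p = 0.0115). GTR1 differed by 1.51 ± 0.37 (limma adjusted p = 0.00559), with 127.9 to 666.3 in leaves and 54.2 to 198.9 in roots, which overlapped. These 4 genes were called in all 24 fits that left out 1 array. UGT74B1 differed by 0.72 ± 0.26 (limma adjusted p = 0.0478) and was called in 5 of those 24 fits, those without replicate 1 of A. petraea control leaves, control roots or high zinc roots or of A. halleri control or high zinc leaves.

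In A. halleri, UGT74C1 had signals of 96.8 to 226.9 in leaves and 7.2 to 52.6 in roots, with no overlap, and a difference of 2.11 ± 0.44 (limma adjusted p = 0.00086). GTR1 differed by 1.24 ± 0.37 (limma adjusted p = 0.0118). BCAT4 differed by 1.16 ± 0.42 (limma adjusted p = 0.033), GSTU20 by 1.19 ± 0.42 (limma adjusted p = 0.0301) and UGT74B1 by 0.76 ± 0.26 (limma adjusted p = 0.0247). Leaving out 1 array ended the call of BCAT4 in 6 of 24 fits, with adjusted p up to 0.0993 (A. halleri high zinc leaves 1 and 3, control leaves 1, control roots 3, high zinc roots 2 and 3). It ended that of GSTU20 in 4, up to 0.0924 (A. halleri control leaves, high zinc leaves, control roots and high zinc roots, replicate 3 each). It ended that of UGT74B1 in 6, up to 0.0622 (A. halleri control and high zinc leaves 2 and 3, control roots 3, high zinc roots 3), and those of UGT74C1 and GTR1 in 0.

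Between the species 0 of the 6 genes were called by limma in leaves and 0 in roots, in contrasts that called 6.06% and 4.69% of all probe sets. With so few genes these counts lie near those shares. The count at an unadjusted p under 0.05 in limma was 1 in leaves and 0 in roots. The gene in leaves was GSTU20, with a median signal of 939.8 in A. petraea and 333.4 in A. halleri and a difference of 1.25 ± 0.42 (95% interval 0.38 to 2.12, limma adjusted p = 0.0859). With the replicate number as a block its limma adjusted p was 0.0379, a call, and without the arrays titled 5 and 24 the difference was 1.51 ± 0.40 (limma adjusted p = 0.0302). Of the 24 fits without 1 array, 2 called it, those without A. petraea control leaves 2 (title 5) or high zinc roots 3, and adjusted p ran from 0.0370 to 0.176. BCAT4 differed between the species by 0.20 ± 0.42 in leaves and -0.17 ± 0.42 in roots. No pathway gene was called for zinc under the inferred grouping, and 0 passed an unadjusted p under 0.05 in limma.

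Under the printed labels 2 of the 6 pathway genes were called lower with zinc in A. halleri leaves. That contrast called 17.2% of probe sets in either direction, 1067 of 17107 lower and 1882 higher. Its median difference over all probe sets was 0.30. The 2 genes were GSTU20 at -2.45 ± 0.67 (limma adjusted p = 0.0244) and UGT74C1 at -2.64 ± 0.79 (limma adjusted p = 0.0313). The organ markers moved with this contrast: leaf minus root markers were 4.97 to 5.27 on the 3 arrays labelled control leaves and -3.51 to -0.90 on the 3 labelled high zinc leaves. Leaving out any 1 of 5 of these 6 arrays gave 0 calls, leaving out high zinc leaves replicate 3 gave 1, and a replicate block within each species and organ gave 0. In the other printed zinc, species and organ comparisons 0 of the 6 were called by limma, and at most 1 passed an unadjusted p under 0.05.

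**Figure D5:**
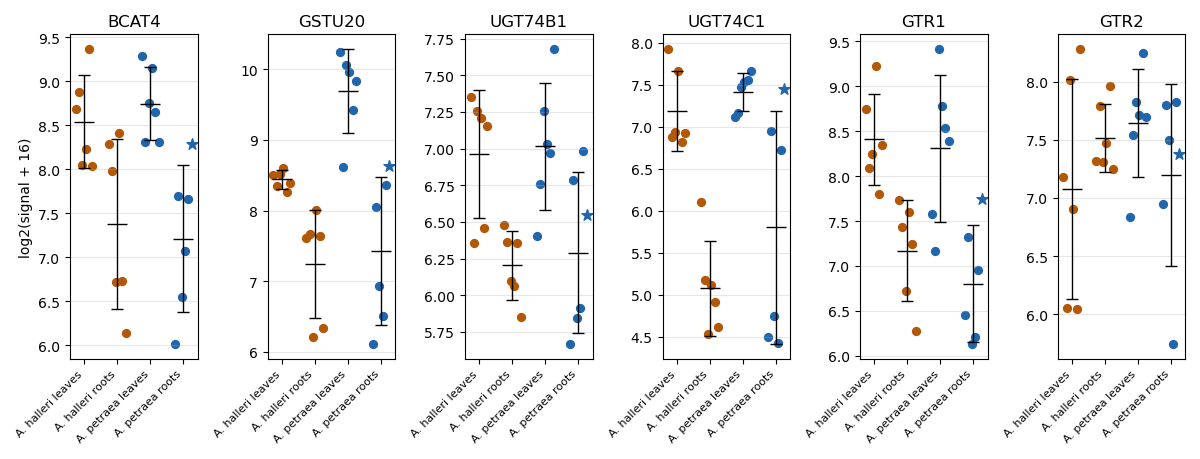
The 6 glucosinolate pathway genes tested, as log2(signal + 16) by inferred species and organ (orange, A. halleri; blue, A. petraea; star, the array titled 24; black bars, mean ± SD of 6 arrays). All but GTR2 have their higher means in leaves in both species, and GSTU20 lies higher in A. petraea leaves (376.5 to 1199.6 in signal) than in A. halleri leaves (291.7 to 374.5).

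The genes whose pattern was most like AOP3 were found by Pearson correlation of log2 values over the 24 arrays among 9558 other named genes. They were AT3G09540 (r = 0.935), AT4G33670 (r = 0.923), AT2G44210 (r = 0.909), AT5G47550 (r = 0.894) and AT2G15580 (r = 0.890). AT3G09540 had a median signal of 256.4 in inferred A. petraea leaves, 79.1 in A. petraea roots, 55.9 in A. halleri leaves and 55.0 in A. halleri roots. AT4G33670 had medians of 715.3, 248.8, 218.5 and 128.0 in the same order. Like AOP3, these 2 probe sets were brightest in A. petraea leaves, but over a smaller range of signals.

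The genes most like AOP1 were AT3G09080 (r = 0.895), GUT1 (r = 0.833), AT2G03510 (r = 0.829), AT1G23750 (r = 0.825) and AT1G19835 (r = 0.825). AT3G09080 had a median of 99.9 in inferred A. halleri roots, 69.9 in A. halleri leaves, 57.9 in A. petraea roots and 41.7 in A. petraea leaves. GUT1 had medians of 345.8, 154.3, 151.4 and 123.9 in that order. The highest values of these were in A. halleri roots, as for AOP1. The arrays share species and organ clusters, so these correlations describe the pattern only.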

How the data were processed

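Total RNA labelled with biotin was hybridised to ATH1 arrays, per the labels. The authors deposited MAS5 signals, which are linear intensity values. The submitters' processing notes name MAS5 with no version, and its settings are not known here. The mean signal without the lowest and highest 2% was 100.0045 to 100.0107 on each array, and array medians were 43.0 to 71.5. The number of arrays limits precision.

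The 22810 probe sets were taken as log2(signal + 16), and the lowest 25% by mean over all arrays were left out, which kept 17107. Genes came from a platform annotation that can be old: 13513 probe sets had 1 gene, and the brightest stood for a gene with several. A model of 8 group means was fitted with limma 3.58.1 (R 4.3.3) to 24 arrays for each grouping (16 residual degrees of freedom, eBayes with trend and robust settings, no replicate block), two-sided, and an adjusted p under 0.05 was a call. The fit was tested on data simulated with independent noise on each array. Those data lack the shared deviation of same-numbered arrays, so they do not test its effect on errors. The inferred grouping is not a label. Of 2 arrays labelled A. halleri control roots that both print replicate 1, the later is replicate 3 here.

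The members and lists were chosen with earlier results of these data known. A pathway gene was matched by symbol or locus identifier, and GTR1 and GTR2 by these older symbols after a first match by newer ones. Named genes are AOP1 and AOP3, up to 4 called members a pathway list, markers, and the 5 genes most correlated with each. Same-numbered control and high zinc arrays deviated together (r over 0.1) in 11 of 12 inferred pairs and 4 of 12 printed pairs. Alternatives were pseudocounts of 1 and 64, quantile normalization, no filter, plain eBayes, a replicate block, leaving out each array, and, chosen after seeing the data, leaving out titles 5 and 24 and a replicate block within each species and organ.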

Additional observations from a re-analysis of the deposited data

Results flagged for a closer look

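These results come from the printed labels, and in each the zinc response ran one way in 1 organ or species and the opposite way in another, with no overlap between control and high zinc arrays in either. The difference itself was not tested. The AOP3 zinc difference was -6.91 in printed A. halleri leaves and 6.03 in printed A. halleri roots. The organ markers moved with these labels: leaf minus root markers were 4.97 to 5.27 in printed A. halleri control leaves, -3.51 to -0.90 in high zinc leaves and 3.24 to 5.64 in high zinc roots. The AOP1 zinc difference was -0.74 in printed A. petraea leaves and 1.78 in printed A. halleri leaves. The GSTU20 zinc difference was -2.45 in printed A. halleri leaves and 2.23 in printed A. halleri roots. Under the inferred grouping the same signals gave 0.04 and -0.46 for AOP3, and -0.32 and 0.05 for AOP1. Groups of 3 arrays are too small for a search for single outlying arrays.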

How the results depend on the processing

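Of the differences and counts recomputed under the alternatives, 1722 stayed within the replicate spread or on their side of the threshold and 34 moved, none with a change of sign in a called value. The pseudocount accounted for 18 of the 34. The tally does not measure robustness, since many differences could not move. Plain eBayes, the filter, the replicate block and leaving out an array outside the contrast alter no difference. An inferred zinc test counted as unmoved while it stayed uncalled, whatever its size. The AOP3 zinc difference in A. petraea roots, which ran from 0.43 to 3.41 without 1 array, was counted so. With a pseudocount of 1 and of 64 in turn, the inferred AOP3 species difference in leaves was 6.65 and 5.06, the inferred AOP1 species difference in roots -2.37 and -0.94, the printed AOP1 species difference in leaves -1.31 and -0.48, the printed AOP1 organ difference in A. petraea -1.71 and -0.58, and the printed zinc differences in A. halleri -8.29 and -5.51 for AOP3 in leaves, 6.69 and 4.96 for AOP3 in roots, and 2.37 and 1.03 for AOP1 in leaves (1.50 with quantile normalization). A pseudocount of 1 alone gave 1.49 for the inferred AOP1 species difference in leaves minus that in roots and -1.49 for the printed AOP1 zinc difference in A. petraea leaves, and 64 alone gave -0.61 for the inferred AOP1 organ difference in A. halleri. A pseudocount weighs low signals by construction.

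The 8 groups of 3 are balanced, so the replicate block alters errors and p-values but no difference. GSTU20, and so 1 of 6 pathway genes, was called between species in leaves with a pseudocount of 64 (adjusted p = 0.0412), with the replicate block (adjusted p = 0.0379) and without the arrays titled 5 and 24; the cause was not tested. UGT74B1 lost its organ call in A. petraea with a pseudocount of 64 (adjusted p = 0.0503), without the filter (0.0582), with plain eBayes (0.0518), without title 24 (0.0502) and without titles 5 and 24 (0.0606). The replicate block within each species and organ left 0 pathway genes called for printed zinc in A. halleri leaves. Leaving out 1 array gave 2 to 5 pathway genes for the inferred organ contrast in A. halleri, 4 to 5 in A. petraea, 0 to 1 for species in leaves and 0 to 2 for printed zinc in A. halleri leaves. It gave 0.43 to 3.41 for the inferred AOP3 zinc difference in A. petraea roots, lowest without title 24 and highest without A. petraea high zinc roots replicate 3. No inferred zinc test of AOP1 or AOP3 was called under any alternative, with a lowest adjusted p of 0.552. Quantile normalization moved the median organ difference of all probe sets from -0.28 to -0.12 in A. halleri and from -0.19 to -0.08 in A. petraea. Dim signals, without detection calls, limit every AOP3 value in A. halleri and the AOP1 values in A. petraea.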
